A study of Drosophila melanogaster and Drosophila simulans with 21 samples.

Results

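RNA from whole F1 hybrid females was set directly against RNA from females of their maternal species on spotted cDNA arrays, which hybridise a pair of differently dyed cDNAs to the same spots. The hybrids were daughters of Canton S females of Drosophila melanogaster and Sim-1 males of its close relative Drosophila simulans, and the maternal RNA came from virgin Canton S females. The arrays with these 2 RNAs were taken by their channel labels. They number 6 of the 21 arrays of the study, 3 with the hybrid in channel 1 and 3 with the hybrid in channel 2. The others set the hybrid against D. simulans (6 arrays), D. simulans against D. melanogaster (6 arrays) or carried 1 RNA in both channels (3 arrays).

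Per the labels, stocks were raised at 25 C, matings ran at 18 C with 7 to 8 flies of either sex, and the collected females were kept 5 to 6 days at room temperature before they were frozen, within a daily window of 2 hours. Both cohorts of each cross ended up in 1 RNA pool per strain. The 6 arrays are therefore repeats of the same pair of pools: p-values measure the spread between arrays, and a difference between genotypes cannot be told apart from a difference between pools. Whole bodies were used, so fewer cells of a type and less RNA per cell cannot be told apart either.

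As background, a daughter of this cross carries 1 genome of each species, including 1 X chromosome of each. Daughters are viable but sterile with small ovaries, while brothers from the same mothers usually die before adulthood. In a D. melanogaster female the ovary holds much of the RNA for cell division, DNA replication and meiosis, part of which is stored in the egg. Fat body, gut, muscle, cuticle and nervous tissue supply most transcripts of metabolism, digestion, contraction and signalling.

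The deposited values are ratios whose numerator is not stated. They were read as channel 1 over channel 2, a reading adopted with earlier results of these data known and resting partly on the sterility of these hybrids. In the other reading every sign below turns, so a low level of ovarian transcripts is no independent result here. Sizes, numbers of genes, and which genes lie on opposite sides of 0 hold in either reading. A log2 value is that of hybrid over D. melanogaster relative to the median probe position of its array, and an estimate is given ± its standard error from limma over the 6 arrays with a term for the channel. A gene is called higher or lower in the hybrid where the adjusted p over all 4779 features tested is under 0.05. The gene lists below were chosen with earlier results of these data known and do not hold every gene of a kind. Their counts beside the share over all features are description, not a test.

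The 6 arrays gave values for 4816 to 4929 probe positions each. The SD of the log2 ratios across positions was 0.895 to 1.18, against 0.209 to 0.215 on the 3 arrays with 1 RNA in both channels. Between 26% and 37.3% of positions exceeded 2-fold, against 0.311% to 0.629% on those 3 arrays. Arrays are numbered in the order of deposition, and arrays 2, 5 and 6 had the hybrid in channel 1. Array 2 stood furthest from the rest, with Pearson correlations of 0.77 to 0.87 to the other five across positions, and array 4 had the smallest spread. Without array 2, 3904 features were called, and without array 4, 3427.

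**Figure D1:**
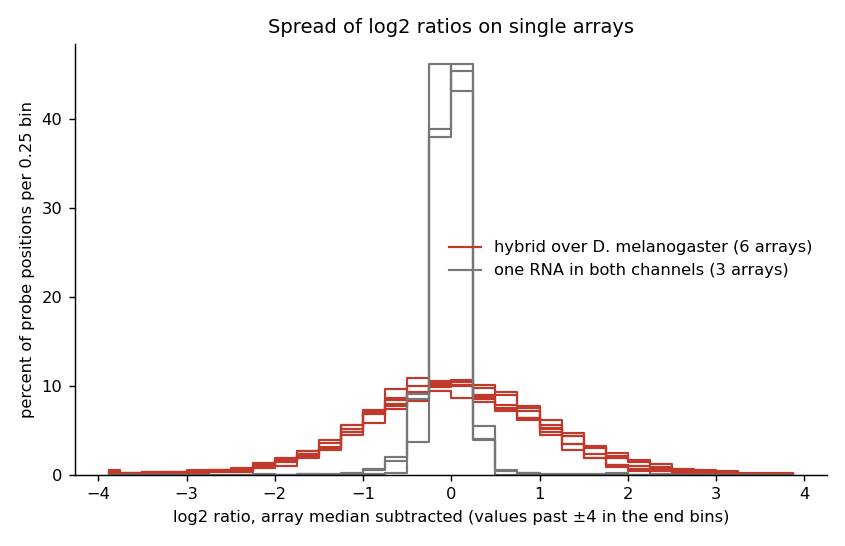
Distribution of log2 ratios across probe positions (percent per bin on the vertical axis), 1 line per array, for the 6 arrays of hybrid over D. melanogaster and the 3 arrays with 1 RNA in both channels. The hybrid arrays have SDs of 0.895 to 1.18 and form broad curves, while the other curves lie close to 0 with SDs of 0.209 to 0.215.

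Hybrid and maternal transcript levels differed across most of the array. Of the 4779 features tested, 3658 were called (76.5%), 1833 of them higher (38.4%) and 1825 lower (38.2%) in the hybrid, and 1368 differed by at least 2-fold (28.6%). The features comprise 965 genes with a name, 424 genes known by a CG number, the systematic label of a predicted Drosophila gene, and 3390 probe positions with no single gene symbol. Among the 1389 annotated genes, 498 were called higher (35.9%) and 531 lower (38.2%). Because array medians were set to 0, near-even numbers on the 2 sides follow largely from that step. With the deposited medians kept, the median over all features moved to -0.08 from 0.02, and 1628 features were called higher and 2021 lower.

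The differences were mostly moderate. The median absolute log2 value was 0.66, with a median standard error of 0.10, and the smallest value called was 0.18. At least 4-fold differences were found for 91 features higher and 133 lower in the hybrid, and at least 8-fold ones for 9 higher and 35 lower. Of the 3658 called features, 3291 had one sign on every array that measured them. The channel term passed the threshold for 0 features in limma, with 521 of 4779 at an unadjusted p under 0.05. Its largest absolute log2 value was 0.85, so the absence of calls does not show that channel effects are absent.

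Genes known only by a CG number differed as often as genes with a name, with 74.1% of either kind called. The split by direction was not the same. Among CG-number genes 171 were higher (40.3%) and 143 lower (33.7%) in the hybrid, and among genes with a name 327 were higher (33.9%) and 388 lower (40.2%). At least 2-fold differences counted 59 higher and 48 lower CG-number genes, and 89 higher and 124 lower genes with a name. The difference between the 2 kinds was not tested.

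The lowest value of any annotated gene in the hybrid was that of BigH1, which encodes a linker histone of the germline and early embryo. Its log2 values were -5.33, -4.74 and -2.36 with the hybrid in channel 2 and -4.91, -4.68 and -4.62 with the hybrid in channel 1. All 6 arrays were far below 0, with array 4 the least so. The estimate was -4.44 ± 0.35, a 21.7-fold lower level in the hybrid (adjusted p = 2.07e-05).

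Several genes of chromosome segregation were among the lowest genes with a name. Of the 133 features at least 4-fold lower, 28 were annotated genes, so most of the low end has no single gene symbol. Of 12 measured genes of mitosis and the spindle, 11 were lower in the hybrid, 0 higher, and tacc, a spindle microtubule gene, was not called at -0.05 ± 0.094. Over all features 38.2% were lower. The list median was -1.84, against 0.02 over all features, and single arrays gave list medians of -1.99 to -1.32. The called members nearest to 0 were gammaTub37C at -0.40 ± 0.082 and cal1 at -0.44 ± 0.17, and array 1 gave 0.55 for cal1. With at least 3 values required, with a common spread, or without array 3, 4, 5 or 6, 10 members were lower. Incenp, a scaffold of the chromosomal passenger complex that carries Aurora B, had a lowest of -4.06, a median of -3.14 and a highest of -2.38 on the 6 arrays. Its estimate was -3.18 ± 0.20 (adjusted p = 8.02e-06), 9.07-fold lower. The gene bora, whose product activates Aurora A, ranged over -3.65 to -2.05, with an estimate of -3.02 ± 0.19 (adjusted p = 8.08e-06). For both genes no array came near 0.

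The gene mud, which orients the spindle, stood at -2.89 ± 0.26 and ranged more widely, over -3.86 to -1.73. APC7 and APC4 encode subunits of the anaphase-promoting complex, the ubiquitin ligase that starts chromosome separation. APC7 was 7.17-fold lower at -2.84 ± 0.19, and APC4 was 2.56-fold lower at -1.36 ± 0.098. Greatwall kinase, encoded by gwl, keeps a phosphatase off during mitosis and had -2.41 ± 0.27. Of its 6 values, 5 lay between -2.49 and -1.78, and array 5 gave -3.94. Zwilch, a member of the RZZ complex at the kinetochore that is not in the list, was at -2.31 ± 0.15. The cohesin subunit gene SMC1 and the gene of the microtubule destabiliser stathmin, stai, were lower as well, at -0.98 ± 0.17 and -1.94 ± 0.16.

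The listed DNA replication genes were all lower in the hybrid. All 6 measured members were called lower, against 38.2% over all features, with a list median of -2.08 and array medians of -2.27 to -1.80. RnrL, the large subunit of ribonucleotide reductase that makes deoxyribonucleotides, had a lowest of -3.72, a median of -2.73 and a highest of -1.74 and an estimate of -2.74 ± 0.23 (adjusted p = 3.17e-05). Prim2, a primase subunit that starts new DNA strands, varied little, over -2.45 to -2.05, around -2.28 ± 0.079 (adjusted p = 2.79e-06). The gene for the large subunit of chromatin assembly factor 1, which places histones on new DNA, was 5.18-fold lower at -2.37 ± 0.19. The polymerase subunit genes PolE1 and PolD2 had -1.89 ± 0.12 and -1.45 ± 0.23, and the replisome gene Ctf4 had -1.66 ± 0.14. The 6 values of PolD2 were scattered over -2.15 to -0.38, with array 2 nearest to 0.

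Of 7 genes of DNA repair, meiosis and cohesion, 6 were lower, against 38.2% over all features, with a list median of -1.62. Without array 1, 4, 5 or 6, 5 were lower. Fitted on title numbers 3 and 5 only the list median was -1.18 over 6 genes, and on 15 and 16 only -1.74. The called member nearest to 0 was mre11 at -0.44 ± 0.14, with 0.14 on array 3. The structure-specific nuclease gene mus81 was not called at -0.06 ± 0.11. With title numbers 15 and 16 only, mus81 was at -0.30. The gene pch2, known for a checkpoint on meiotic chromosome synapsis, led the list, with a lowest of -3.50, a median of -2.91 and a highest of -1.97 and an estimate of -2.87 ± 0.16 (adjusted p = 6.14e-06). The synaptonemal complex genes c(2)M and c(3)G, whose products hold paired meiotic chromosomes together, had -1.62 ± 0.19 over 5 arrays and -1.45 ± 0.28. The 6 values of c(3)G ran from -2.57 to -0.28, all below 0 but far apart. The helicase gene RecQ4 was at -1.90 ± 0.13, and gkt, a phosphodiesterase gene that frees trapped topoisomerase, was at -1.79 ± 0.077. Pif1, a further DNA helicase gene, was 5.87-fold lower at -2.55 ± 0.30, although array 4 gave only -0.61 against -3.41 to -2.50 on the others.

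**Figure D2:**
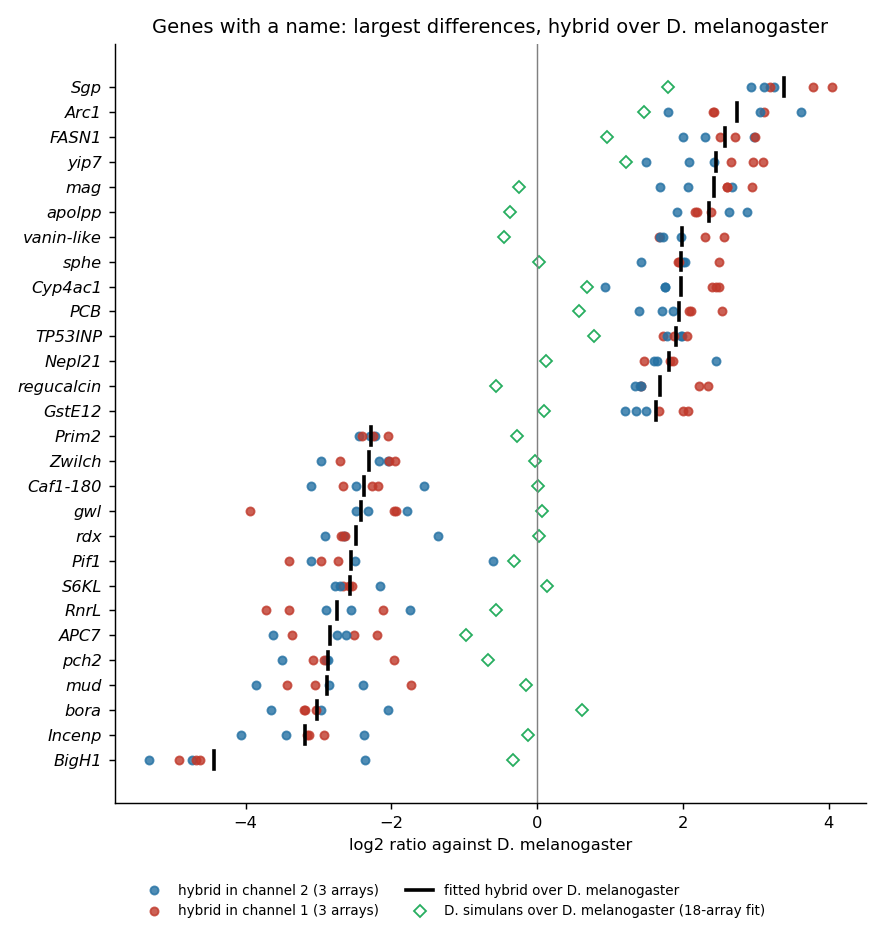
Log2 values of the 14 highest and 14 lowest genes with a name, 1 row per gene; circles are the 6 arrays, coloured by the channel of the hybrid, and bars the fitted hybrid over D. melanogaster value. Diamonds give D. simulans over D. melanogaster from all 18 arrays with a pair of RNAs. Genes were picked with one sign on every array, so circles on one side of 0 are fixed by the choice. Fitted values run from BigH1 at -4.44 to Sgp at 3.39.

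Regulators of the germline moved less evenly. Of 15 measured genes of germline, oogenesis and maternal factors, 9 were lower, 1 was higher and 5 were not called, with a median of -0.36, where 38.2% of all features were lower and 38.4% higher. With the deposited medians kept, 12 members of this list and 2021 of 4779 features were lower. Without array 3 or 6, 8 members were lower. Lower members included zuc, a nuclease gene of the piRNA pathway that silences transposons, at -1.86 ± 0.11 over 5 arrays (adjusted p = 1.52e-05), and Hen1, which methylates small RNAs, at -1.05 ± 0.11. The deadenylase gene twin was at -1.46 ± 0.081, the TRIM-NHL translation regulator gene mei-P26 at -0.89 ± 0.097, and wde, whose product assists histone H3 methylation in the germline, at -0.77 ± 0.11. The gene mino, an acyltransferase gene of the mitochondrial surface with a part in the piRNA pathway, was the member called higher, at 0.52 ± 0.087. The transcription factor gene ovo, needed in the female germline, was at 0.01 ± 0.12 and had values on both sides of 0. Fitted on title numbers 15 and 16 only, ovo was at 0.19.

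No measured gene represented the eggshell and yolk, or sex determination and dosage compensation. Of 3 genes known from the male germline, Phf7, a histone reader gene, was lower at -1.70 ± 0.16 over 5 arrays. The testis gene ocn was called higher at 0.87 ± 0.30, but its values ran from -0.15 to 2.42, and the call was lost without array 1, 3 or 4 and with the deposited medians kept. Its neighbour janB was not called at 0.47 ± 0.27, but was called higher over all 18 arrays, at 0.53, and with title number as a term.

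Genes of the nuclear pore and nuclear import were lower or not called. Of 14, 9 were lower and 0 higher, with a median of -0.87, against 38.2% lower over all features. With the deposited medians kept, 12 of 14 members and 2021 of 4779 features were lower. With title numbers 15 and 16 only, 1 member was called higher. Nup93-1 and Nup154, encoding parts of the inner pore ring, were at -2.09 ± 0.16 and -1.75 ± 0.088, and Nup35 was at -1.31 ± 0.10. Ran, the small GTPase gene that gives import its direction and also serves the spindle, varied little, over -1.90 to -1.52, at -1.75 ± 0.084 (adjusted p = 4.31e-06). The import receptor gene msk was at -1.38 ± 0.078. Nup98-96, whose Nup96 product is known as a partner in inviability between these species, had a lowest of -1.45, a median of -1.19 and a highest of -0.52. Its estimate was -1.11 ± 0.13 (adjusted p = 1.35e-04), 2.16-fold lower.

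Of 7 chromatin and histone genes, 6 were lower, with BigH1 among them, and 0 higher, at a median of -0.94. Over all features 38.2% were lower. Kdm4A, a histone demethylase gene, was at -1.79 ± 0.17, and chm, a histone acetyltransferase gene, at -1.37 ± 0.11. The Polycomb repressive complex genes Su(z)12 and escl were at -0.94 ± 0.14 and -0.74 ± 0.079, and Rbf, the fly retinoblastoma gene that restrains the cell cycle, was at -0.82 ± 0.10. For Su(z)12, array 2 gave -1.66, further from 0 than any other array, and array 5 gave -0.63, the nearest to it.

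Genes of protein production and turnover were mostly lower or not called. Of 7 chaperone genes, 5 were lower, 0 higher, at a median of -0.39. CCT2, CCT5 and CCT8 encode subunits of the TRiC chaperonin, which folds actin and tubulin, and had -2.03 ± 0.080, -1.40 ± 0.080 and -0.84 ± 0.11. Of 7 aminoacyl tRNA synthetase genes, 6 were lower at a list median of -0.60, the lowest being GlnRS and CysRS at -0.89 and -0.89. Of 6 proteasome genes, 4 were lower, among them Rpt5 and Prosbeta7 at -0.82 ± 0.077 and -0.80 ± 0.075, against 38.2% lower over all features. Prosbeta4R2, a subunit gene, lay on the other side at 1.08 ± 0.44 over 5 arrays, was not called, and ran from -0.61 to 2.63. It was called higher over all 18 arrays, with a common spread, without a channel term, with title number as a term, with title numbers 3 and 5 only and without array 5. Of 13 splicing and RNA processing genes, 7 were lower, against the same 38.2%, led by the pseudouridine synthase gene Nop60B at -1.41 ± 0.091, and 1 was higher, Hrb27C at 0.30 ± 0.082, a call lost with the deposited medians kept, with title numbers 3 and 5 only and without array 5. Among 4 cytosolic ribosomal protein genes, RpL32 was called higher at 0.23 ± 0.079 with values on both sides of 0, and the other three were not called. The ribosomal median of 0.04 turned to -0.07 with the deposited medians kept, and the call for RpL32 was lost, as it was without array 1, 4, 5 or 6.

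Further genes at the low end fell in none of these groups. S6KL, a kinase gene related to S6 kinase, was 5.94-fold lower with little scatter, at -2.57 ± 0.099 and a range of -2.77 to -2.16 (adjusted p = 3.09e-06). The gene rdx, encoding an adaptor that brings substrates to a Cullin-3 ubiquitin ligase, was at -2.49 ± 0.19. Array 4 gave -1.36 and the others -2.91 to -2.63.

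At the high end, genes of lipid handling and the fat body were raised in the hybrid. Of 17 measured members 16 were higher and 0 lower, against 38.4% higher over all features, with a median of 0.99. Over all 18 arrays, with a common spread, without a channel term, or with 1 position per gene, 15 were higher. The number was also 15 with the deposited medians kept and without array 1, 3, 5 or 6. The called member nearest to 0 was Hmgs at 0.20 ± 0.078 (adjusted p = 0.0497), with -0.03 on array 4. The lipoprotein receptor gene LpR2 was not called at 0.26 ± 0.14. It was called higher with title number as a term and, at 0.41, without array 2. The list median on single arrays ran from 0.48 on array 2 to 1.58 on array 6. Fitted on title numbers 3 and 5 only it was 0.66, and on 15 and 16 only 1.30. FASN1, a fatty acid synthase gene, had a lowest of 2.00, a median of 2.61 and a highest of 2.99, and an estimate of 2.58 ± 0.14 (adjusted p = 4.99e-06), 5.98-fold higher. The gene apolpp, precursor of the main lipoprotein of the fly's blood, was 5.14-fold higher at 2.36 ± 0.13 (adjusted p = 5.21e-06). The lipase gene mag, known from the gut, was 5.4-fold higher at 2.43 ± 0.13.

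Smaller differences were measured for other steps of the pathway. The fatty acid transporter gene Fatp1 and the acyl-CoA synthetase gene Acsl were at 1.27 ± 0.15 and 1.27 ± 0.19, mdy, an acyltransferase gene of triglyceride synthesis, at 1.10 ± 0.17, and the fatty acid elongase gene bond at 0.89 ± 0.14. The triglyceride lipase gene bmm was at 0.71 ± 0.14, and Lsd-2, a perilipin gene of the lipid droplet surface, at 0.42 ± 0.070. Genes of both synthesis and breakdown thus had higher values. The pantetheinase family gene vanin-like and regucalcin, a calcium-binding protein gene, were at 1.99 ± 0.12 and 1.69 ± 0.13. Carbohydrate genes in the same list were higher too: glycogen phosphorylase (Glyp) at 0.98 ± 0.081, trehalase (Treh) at 0.93 ± 0.19 and fructose bisphosphatase (fbp) at 0.99 ± 0.13. Treh ran from 0.23 to 1.74 over the arrays.

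All 6 measured genes of glycolysis, the citrate cycle and the respiratory chain were higher, against 38.4% over all features, with a median of 0.92. PCB, pyruvate carboxylase, which replenishes the citrate cycle, had a lowest of 1.40, a median of 1.97 and a highest of 2.53 and an estimate of 1.95 ± 0.099 (adjusted p = 4.69e-06). ND-51 and COX7C, subunit genes of respiratory complexes I and IV, were at 1.38 ± 0.11 and 0.99 ± 0.10. Phosphofructokinase (Pfk) was at 0.76 ± 0.10, Ogdh, a 2-oxoglutarate dehydrogenase gene, at 0.86 ± 0.17, and the succinyl-CoA ligase gene Scsalpha1 at 0.62 ± 0.072.

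Of 11 genes in the list of P450, glutathione and glucuronosyl detoxification, 9 were higher and 1 lower, against 38.4% higher over all features. The list median was 1.47. Members called higher include Pxn at 1.52 ± 0.098 and Aldh7A1 at 1.54 ± 0.10. Both are outside the P450, glutathione transferase and glucuronosyltransferase families but are counted among the 9. The cytochrome P450 genes Cyp4ac1, Cyp4g15 and Cyp12d1-p had 1.97 ± 0.12, 1.23 ± 0.092 and 1.23 ± 0.094, whereas Cyp6u1 was slightly lower at -0.24 ± 0.070, a call lost with title numbers 3 and 5 only and without array 5. Cyp4ac1 ran from 0.93 to 2.50. The glutathione transferase genes GstE12, GstE13 and GstZ2 were close together at 1.63 ± 0.085, 1.54 ± 0.088 and 1.47 ± 0.086. Spotted cDNAs of close family members can bind each other's transcripts, so values within the P450 and glutathione transferase families may be shared between relatives.

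Among digestive genes, yip7, a serine protease gene, had a median of 2.55 and a highest value of 3.10 on the 6 arrays and an estimate of 2.46 ± 0.13 (adjusted p = 5.09e-06), and the mucin gene Muc68D was at 1.18 ± 0.14. With mag, all 3 measured gut genes were higher, against 38.4% over all features. The serine protease homologue gene sphe and the neprilysin-like peptidase gene Nepl21 were 3.93-fold and 3.5-fold higher.

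All 5 measured muscle genes were higher, against 38.4% over all features, within a narrow band from 1.12 to 1.52. Prm, the paramyosin gene of the thick filament, was at 1.42 ± 0.12, up, the troponin T gene, at 1.25 ± 0.071 with a range of 0.98 to 1.43, and Strn-Mlck, a myosin light chain kinase gene, at 1.52 ± 0.093. The Z-disc gene Zasp66 was at 1.13 ± 0.17. On single arrays the muscle median ran from 0.98 on array 2 to 1.60 on array 5. Fitted on title numbers 3 and 5 only it was 1.15 over 4 genes, and on 15 and 16 only 1.53.

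Of 10 genes listed for cuticle and chitin, 9 were higher and 1 lower, against 38.4% higher over all features, with a median of 0.86. The chitin-binding genes obst-A and obst-B were at 1.06 ± 0.093 and 1.08 ± 0.074, and the cuticle protein genes Cpr49Ac and Cpr72Ec at 1.07 ± 0.13 and 0.86 ± 0.10. The lower member, tant at -1.05 ± 0.098, is not a cuticle gene by its known role.

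Of 10 neuronal and synaptic genes, 7 were higher, 0 lower and 3 not called, with a median of 0.61, against 38.4% higher over all features. Those not called were the vesicle fusion gene nSyb at -0.09 ± 0.14, the vesicle priming gene unc-13 at -0.27 ± 0.15 and Teh1, a sodium channel subunit gene, at -0.08 ± 0.077. Of these, unc-13 was called lower without array 2 and with title numbers 15 and 16 only, and nSyb with title numbers 3 and 5 only. Arc1, a capsid-forming gene derived from a retrotransposon and active at synapses, was 6.69-fold higher, with a lowest of 1.80, a median of 2.74 and a highest of 3.62 and an estimate of 2.74 ± 0.23 (adjusted p = 2.81e-05). The potassium channel genes slo and Sh were at 1.26 ± 0.18 and 1.04 ± 0.074, and Ih, a hyperpolarisation-gated channel gene, at 0.93 ± 0.070 with a narrow range of 0.85 to 1.08. In the eye pathway Galphaq, the G protein gene of phototransduction, was at 1.12 ± 0.11, rdgA, a diacylglycerol kinase gene, at 0.60 ± 0.14, and the lipase gene inaE was lower at -0.30 ± 0.086. With title numbers 3 and 5 only, rdgA was at 0.24 and not called. Obp19d, an odorant-binding protein gene, was at 1.49 ± 0.075 (adjusted p = 4.67e-06) with a range of 1.32 to 1.69. Both immune genes measured were higher, vir-1, induced by virus infection, at 1.40 ± 0.10, and the serpin gene Spn27A at 0.69 ± 0.094.

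**Figure D3:**
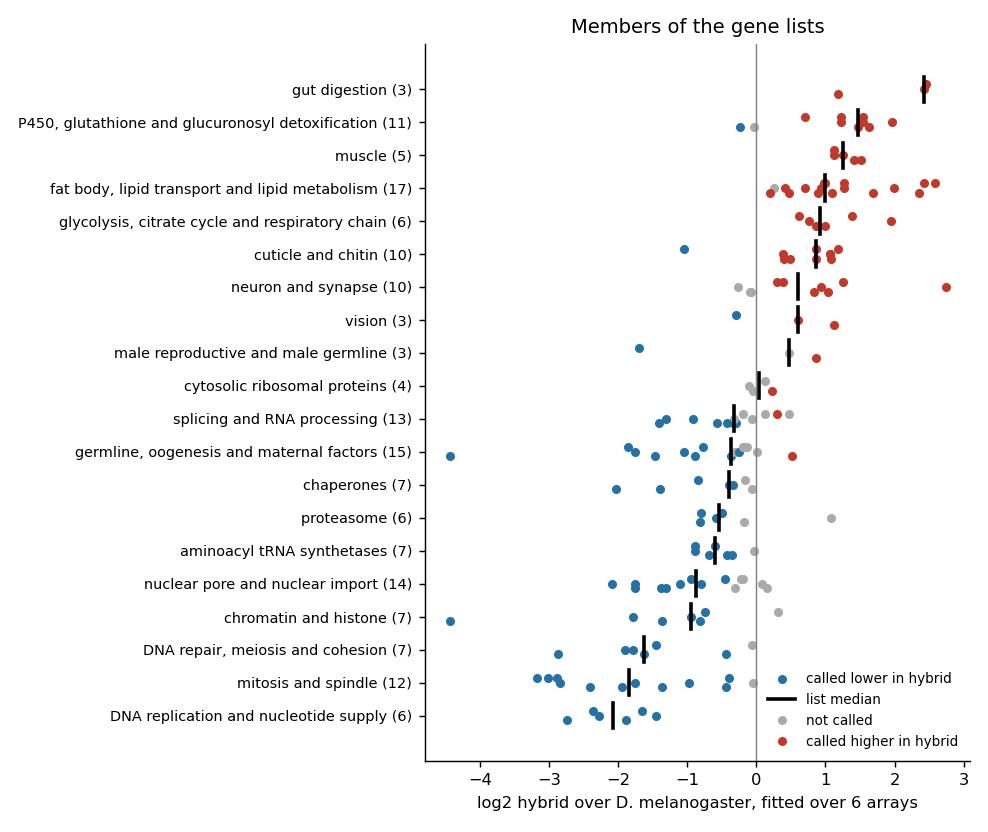
Fitted log2 hybrid over D. melanogaster value of each measured member (circles, coloured by call) of the gene lists with at least 3 measured members, with the list median as a bar; numbers in brackets are measured members. Division, replication and repair lists lie at medians of -2.08 to -1.62, and gut, detoxification, muscle and fat body lists at 0.99 to 2.43.

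The gene with the highest value of all annotated genes was Sgp, at 3.39 ± 0.12 (adjusted p = 2.79e-06), 10.5-fold higher in the hybrid. Its log2 values were 3.20, 3.79 and 4.05 with the hybrid in channel 1 and 3.25, 3.11 and 2.93 with the hybrid in channel 2. The lowest of the 6 was thus still far above 0. TP53INP, an autophagy regulator gene, was 3.74-fold higher with little scatter, over 1.73 to 2.06.

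Genes known only by CG number reached differences nearly as large as the named ones. CG8654 on arm 2R was 9.37-fold higher in the hybrid, with a lowest of 2.52, a median of 3.28 and a highest of 3.67 and an estimate of 3.23 ± 0.14 (adjusted p = 3.86e-06). CG32444 on arm 3L was 8.57-fold higher, at 3.10 ± 0.13 and with 6 values from 2.40 to 3.70. Both stood with Sgp as the only annotated genes at least 8-fold higher. CG5770 on arm 2R was at 2.39 ± 0.13, over 1.65 to 3.03.

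The X-linked genes CG13360, CG2930 and CG10962 were at 2.24 ± 0.080, 2.23 ± 0.14 and 1.96 ± 0.081. CG13360 and CG10962 had small standard errors for their size, with ranges of 1.89 to 2.60 and 1.67 to 2.24. CG9297 on arm 3R was at 2.09 ± 0.087, over 1.81 to 2.44. CG8745 on arm 3L was at 1.94 ± 0.14, and CG5171 and CG31778 on arm 2L were at 1.90 ± 0.12 and 1.86 ± 0.087. CG31778 varied least of these in range, over 1.68 to 2.15.

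At the low end, CG11674 and CG3679, both X-linked, were 10.5-fold and 9.73-fold lower in the hybrid. CG11674 had a lowest of -4.08, a median of -3.33 and a highest of -2.77, at -3.39 ± 0.16 (adjusted p = 4.10e-06). CG3679 had a lowest of -4.01, a median of -3.29 and a highest of -2.22, at -3.28 ± 0.19 (adjusted p = 6.37e-06), its highest value being that of array 4. These were the lowest annotated genes after BigH1, ahead of Incenp.

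CG31517 on arm 3R was at -2.50 ± 0.17, with a range of -3.08 to -1.83, and CG7744 on arm 2R was at -2.26 ± 0.13, over -2.87 to -1.81. CG14005 on arm 2L was at -2.02 ± 0.11 and CG13380 on arm 3L at -1.95 ± 0.17. Of the X-linked genes, CG1622 and CG3457 were at -2.09 ± 0.12 and -2.01 ± 0.14. CG9393 on arm 3R and the X-linked CG4991 were called at -1.95 ± 0.11 and -1.91 ± 0.27, and in both array 4 stood apart. CG4991 was at -0.31 on array 4 and at -2.57 to -2.07 on the others.

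**Figure D4:**
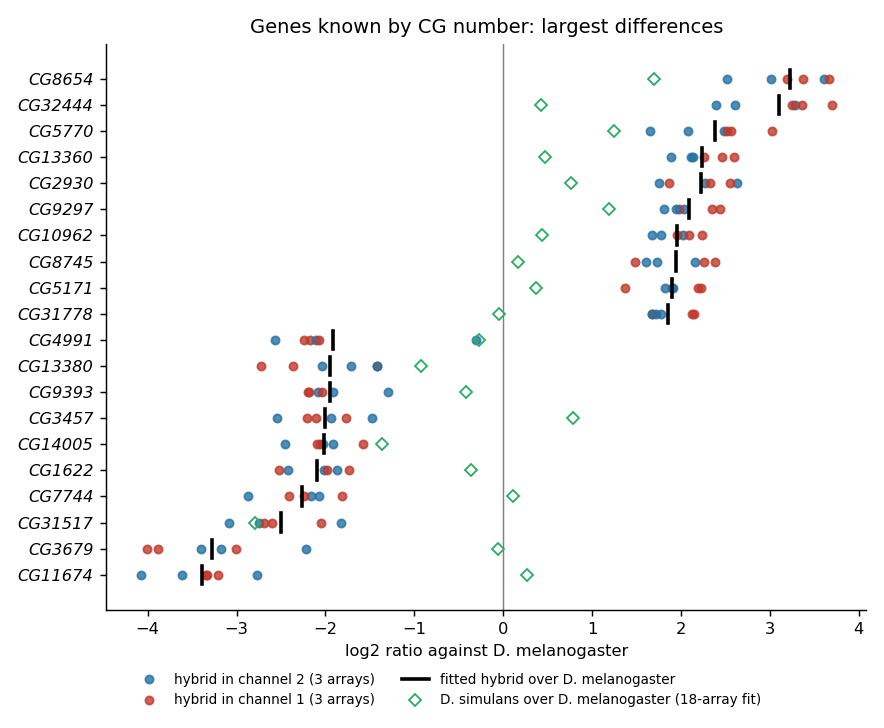
Log2 values of the 10 highest and 10 lowest genes known by CG number, drawn as in the plot of genes with a name: circles for the 6 arrays, bars for the fitted hybrid over D. melanogaster value, diamonds for D. simulans over D. melanogaster. The diamond of CG31517 at -2.79 lies among its hybrid circles, and that of CG3679 at -0.06 lies near 0.

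The 6 arrays alone do not place the hybrid relative to its father's species, so the same genes were read in a fit over all 18 arrays with a pair of RNAs. In it, 3916 features differed between the hybrid and D. simulans (81.9%) and 2219 between D. simulans and D. melanogaster (46.4%). The comparisons share RNA pools, so values are set side by side only. The contrast of D. simulans over D. melanogaster is also the test of whether the hybrid's difference from one parent equals that from the other.

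For the lowest genes with a name the parents mostly lay close together. BigH1 was at -4.33 in hybrid over D. simulans and at -0.33 ± 0.23 in D. simulans over D. melanogaster (adjusted p = 0.251). Incenp was at -3.09 in hybrid over D. simulans, with a parental contrast of -0.13 ± 0.19 (adjusted p = 0.588). The parental contrast was called for 3 of the 14 lowest genes with a name, bora at 0.62, pch2 at -0.68 and APC7 at -0.98. Of the 14 highest, it was called for 10, with 7 higher and 3 lower in D. simulans. Over all features it was called for 46.4%. These genes were picked by their values against the same D. melanogaster pool, so the counts are no independent result.

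Several of the highest genes were also higher in D. simulans than in D. melanogaster, with the hybrid above both. Sgp was at 1.54 in hybrid over D. simulans and 1.80 ± 0.12 in D. simulans over D. melanogaster (adjusted p = 6.49e-10). CG8654 was at 1.58 and 1.70 ± 0.10 in the same contrasts. CG9297 was at 0.92 and 1.19 ± 0.10. Of the 10 highest CG-number genes, 8 were called higher in D. simulans and 0 lower, against 46.4% of all features in either direction. The gene mag differed in this respect, at 2.79 in hybrid over D. simulans and -0.25 ± 0.11 between the parents, which was not called (adjusted p = 0.0768). The CG-number genes too were picked by values against the shared D. melanogaster pool, which limits their count in the same way.

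A few genes differed far more from the mother than from the father. CG31517 was at -2.50 in hybrid over D. melanogaster but 0.35 ± 0.12 in hybrid over D. simulans, with D. simulans over D. melanogaster at -2.79 ± 0.12 (adjusted p = 9.11e-13). The synaptonemal gene c(3)G was at 0.14 ± 0.19 in hybrid over D. simulans and -1.79 ± 0.19 in D. simulans over D. melanogaster (adjusted p = 6.31e-07). GstE13 was at 0.28 ± 0.07 and 1.31 ± 0.07 in the same contrasts (adjusted p = 2.45e-11 between the parents), on the high side. CG14005 and gkt were also lower in D. simulans than in D. melanogaster, at -1.36 and -1.28, and the hybrid lay below both parents, at -0.62 and -0.54 in hybrid over D. simulans. Sequence differences between D. simulans transcripts and the spotted cDNAs can move a ratio, and their part in these values was not tested.

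A larger share of annotated genes was lower in the hybrid on the X chromosome than on the autosomes. Of 256 X-linked genes, 123 were called lower (48%) and 74 higher (28.9%), while of 1133 autosomal genes 408 were lower (36%) and 424 higher (37.4%). The X median was -0.22, and every array gave an X median between -0.24 and -0.16. It was -0.32 with the deposited medians kept, against a shift of the median over all features from 0.02 to -0.08. The median of X-linked genes was -0.18 in hybrid over D. simulans and -0.03 in D. simulans over D. melanogaster. The contrast between X and autosomes was not tested. Of the 48 leading genes described above, 14 highest and 14 lowest with a name and 10 and 10 with a CG number, 15 are X-linked (31.2%), 6 of them higher and 9 lower, against 18.4% of annotated genes tested.

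The medians of arms 2L, 2R, 3L and 3R lay between -0.04 and 0.08. On the small chromosome 4, 10 of 16 measured genes were higher and 2 lower, with a median of 0.53. Of all annotated genes 35.9% were higher and 38.2% lower. Without array 3, 4, 5 or 6, 8 genes of chromosome 4 were higher. The largest members on this chromosome were apolpp and Sox102F, a transcription factor gene, at 1.46 ± 0.096. The chromosome 4 median fell into separate ranges by the number in the array titles, whose meaning the labels do not state. It was 0.13, 0.15 and 0.41 on arrays 1, 2 and 3 (titles 3 and 5) and 0.91, 0.88 and 0.82 on arrays 4, 5 and 6 (titles 15 and 16). Fitted within these sets, it was 0.25 and 0.88. Array medians of the fat body, muscle and vision lists were also lower on arrays 1, 2 and 3 than on arrays 4, 5 and 6. Those of male germline genes were higher on arrays 1, 2 and 3, and those of gut genes overlapped. The part of the title number in these results was not tested beyond these values.

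**Figure D5:**
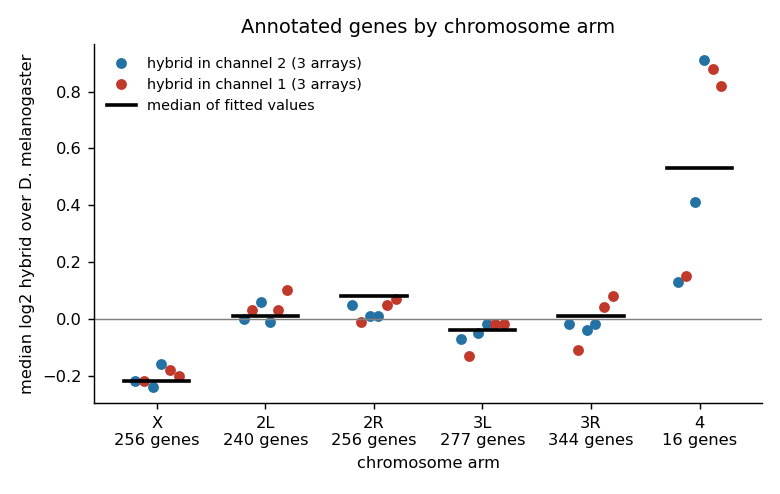
Median log2 hybrid over D. melanogaster of annotated genes by chromosome arm, with 1 circle per array, coloured by the channel of the hybrid, and a bar for the median of fitted values. All 6 circles of the X lie between -0.24 and -0.16, and those of chromosome 4 spread from 0.13 to 0.91.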

How the data were processed

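Spotted cDNA arrays compared RNA pools of whole females, and the authors deposited a linear ratio for every probe position on every array. How spots were scanned, corrected, normalized and filtered is not given in the sources used here. Signal over background is unknown, so the number of arrays limits the precision. Of 6101 positions, 1145 held no value. GEO's platform annotation named a single gene at 1943 positions, several at 67 and none at 4091. All 1943 were found by gene ID among RefSeq genes of Release 6 plus ISO1 MT. Positions of a gene were averaged (113 tested genes).

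Ratios were turned to log2, each array's median was subtracted, and signs were aligned by the channel labels. Features with at least 2 values in each orientation were tested: 4779, of which 4486 had values on all 6 arrays. limma 3.58.1 in R 4.3.3 (lmFit, eBayes) fitted the 6 arrays with a channel term. Two-sided p-values were adjusted by Benjamini-Hochberg over all features, with a threshold of 0.05. Residual degrees of freedom were 2 to 4, with 3.15 from the prior. A second fit used the 18 arrays with a pair of RNAs. Named genes are the 14 highest and 14 lowest with a name and the 10 and 10 with a CG number (called, one sign on every array), plus genes of the lists and arms. A few genes are in more than 1 list. Genes, lists and the reading of the ratios were chosen with earlier results of these data known. Alternatives covered centring, scaling, the channel term, filters, title number and each array left out. Promoter and protein sequences were not used here.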

Additional observations from a re-analysis of the deposited data

Results flagged for a closer look

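Among 161 sets of array values, 15 genes had a single array apart from the rest by a test for outliers that chance passes in about 1 of 20 sets. Array 4, which had the smallest spread of log2 ratios, was the one apart for 7 genes: BigH1 at -2.36, Pif1 at -0.61, rdx at -1.36, CG9393 at -1.30, CG4991 at -0.31, mei-P26 at -0.43 and wde at -0.15. In these 7 genes it lay nearest to 0. Array 2, the least correlated with the others, was apart for 4 genes: SMC1 at -2.01 and Su(z)12 at -1.66 lay further from 0 than on the other arrays, and GlnRS at -0.50 and bond at 0.18 nearer to it. Array 5 was apart for gwl at -3.94 and Phf7 at -0.97. Array 1 was apart for obst-A at 1.48 and Sox102F at 0.93. All 15 genes kept their direction on each of these arrays, and the part of the arrays' spread in these values was not tested.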

How the results depend on the processing

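In 17 alternative fits, the features called numbered 3332 to 3991 and those with at least 2-fold differences 1321 to 1466, against 3658 and 1368. Leaving out each array in turn gave 3332 to 3904 and 1322 to 1400 in the same counts. Arrays with title numbers 3 and 5 alone gave 3609 calls and those with 15 and 16 alone 3956, and a threshold of 1.5-fold left 2564. All 48 leading genes kept direction and call in these fits (816 values), which their choice as the largest called values with one sign on every array makes likely. Over 132 of the genes named in the text, 2182 of 2234 values kept direction and side of the threshold. Of the other values, 18 lost and 17 gained a call, and 17 turned sign. The turned values belong to 7 genes not called over the 6 arrays. For ovo they were -0.01 over all 18 arrays, -0.09 with the deposited medians kept and -0.26 with title numbers 3 and 5 only. For mus81 they were 0.03 over all 18 arrays and 0.09 with title numbers 3 and 5 only. With title numbers 15 and 16 only, tacc was at 0.14, nSyb at 0.18 and janB at -0.02. With title numbers 3 and 5 only, LpR2 was at -0.10, unc-13 at 0.02 and janB called at 1.21. With single arrays left out, the values ran from -0.05 to 0.14 for ovo, -0.15 to 0.04 for mus81, -0.11 to 0.01 for tacc and -0.21 to 0.03 for nSyb. The cause was not tested.

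No paired analysis was possible because replicate numbers follow only the order of deposition, and each array already sets both RNAs against each other. The title number is shared by arrays 1 and 2 and by arrays 4 and 5, and with it as a term 3884 features were called. Medians of arms 2L, 2R and 3R, of ribosomal and of male germline genes changed sign in 10 of 493 values. Signal over background, the spread between flies and the numerator of the ratios limit these results.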

Other observations

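Position identifiers hold several numbers, and the median log2 of hybrid over D. melanogaster differed between positions grouped by the second of them, whose meaning the sources used here do not state. Of 20 such groups with at least 20 values, 13 had a median of one sign on all 6 arrays, in both channel orientations. Positions with number 1 had array medians of 0.41 to 0.63, and those with number 4 of 0.41 to 0.53. Positions with number 6 had array medians of -0.56 to -0.33. Number 20, a group of 48 positions, had array medians of 0.43 to 1.90, the 1.90 being on array 2. On the 3 arrays with 1 RNA in both channels, the group medians ran from -0.24 to 0.14, both ends being those of number 20, and from -0.07 to 0.08 over the other groups.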
